A study of Mus musculus with 2 samples.

Results

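The 10 Notch pathway genes described here are the receptor genes Notch1, Notch2 and Notch3, the ligand genes Dll1, Jag1 and Jag2, the transcription factor gene Rbpj and the target genes Hes1, Hes5 and Hey1. They were picked by gene symbol, and all 10 were found, each with 1 identifier, among 55536 annotated genes. The data are total RNA-seq of hippocampus from B6CASTF1/J mice, a hybrid of C57BL/6J with CAST/EiJ, at 10 days of age. Both libraries belong to 1 group, with no treatment, gene deletion or transgene named for either. Each was made from 300 ng of RNA, is labelled male and carries a label naming 3 males, so a pool of animals is possible but is not spelled out. The labels call the tissue a layer of hippocampus without naming which layer.

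Notch receptors sit at the cell surface and are bound by Delta-like and Jagged ligands on neighbouring cells. Binding leads to cleavage by ADAM proteases and then by gamma-secretase, which frees the intracellular domain of the receptor. In the nucleus this domain joins Rbpj, the DNA-binding factor of the pathway, and Mastermind-like coactivators to switch on genes of the Hes and Hey families, whose products repress neuronal differentiation genes. In the postnatal hippocampus the pathway is known for holding stem cells of the dentate gyrus in an undifferentiated state, and it also acts in astrocytes and in blood vessels, where Notch3 serves mural cells.

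The libraries held 31920933 and 29640307 expected counts on annotated genes, in replicates 1 and 2. Replicate 2 goes against its label of sex. It had 30841 counts of Xist, the RNA that coats the inactive X chromosome, against 25 in replicate 1, and 0 to 2 counts on each of 4 Y-linked genes that had 764 to 2164 in replicate 1. Replicate 2 below means the library numbered 2, which keeps its label of male. Levels and shares are given for each library, and a level or share that stands alone is taken over both libraries. All 8 markers of radial glia and neural stem cells and all 7 of astrocytes were detected at a TPM of 1 or more, TPM being transcripts per 1000000, in both libraries, as were all 6 endothelial markers and all 6 of pericytes and smooth muscle. The summed level of these lists was 603 and 615 TPM for radial glia, 1248 and 1323 for astrocytes, 86.3 and 88.3 for endothelium and 78.5 and 79.5 for pericytes and smooth muscle. Most of the astrocyte sum came from Slc1a2, at 662 and 729 TPM, and most of the pericyte sum from Rgs5, at 52.0 and 49.9. Single astrocyte markers went either way, with Gfap at 122 and 138 TPM and Gja1 at 126 and 112. Most of the radial glia sum came from Fabp7, at 272 and 281 TPM, and Slc1a3, at 197 and 200. The other markers of that list lay between Pax6, at 5.30 and 5.15 TPM, and Vim, at 59.3 and 49.6. Nes stood at 6.58 and 7.11 TPM, so the sum is no measure of stem cells alone. The excitatory neuron markers summed to 1474 and 1613 TPM. The lists furthest apart between the libraries were those of choroid plexus, at 11.04 and 351 TPM, and of meninges and fibroblasts, at 391 and 140, of which Ttr and Ptgds alone made up most.

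All 10 members were expressed, and the target gene Hes5 stood highest when reads were counted from alignments. Hes5 reached 33.0 ± 1.29 TPM (SD, n = 2) and Jag1, the lowest member, 4.27 ± 0.0636. Hes5 lay above 73.4% of the 13075 protein-coding genes detected in both libraries, and Jag1 above 17.3%. The median member stood at 11.4 TPM, and the median of those protein-coding genes at 15.7. TPM divides by transcript length, so levels of different genes can be set side by side. From high to low the order was Hes5, Jag2, Hey1, Notch1, Notch2, Rbpj, Notch3, Hes1, Dll1 and Jag1. Of the 9 neighbouring pairs in that order, 6 had ranges over the libraries, of 2 values each, that did not overlap. By the TPM bounds deposited for each library, whose level is not stated, fewer of these 6 pairs were apart. In replicate 1 Hey1 (19.1 to 22.3) overlapped Jag2 (21.4 to 27.5) and Notch1 (20.3 to 26.7). Notch2 (11.6 to 13.3) likewise overlapped Rbpj (8.91 to 12.05). The same pairs overlapped in replicate 2, as did Hes5 and Jag2. Notch1 and Notch2, and Dll1 and Jag1, were apart in both libraries. The neighbours from Rbpj through Notch3 and Hes1 to Dll1 did not differ beyond their spread. In bulk tissue a lower level may come from fewer cells or from less RNA per cell, and these cannot be told apart.

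**Figure D1:**
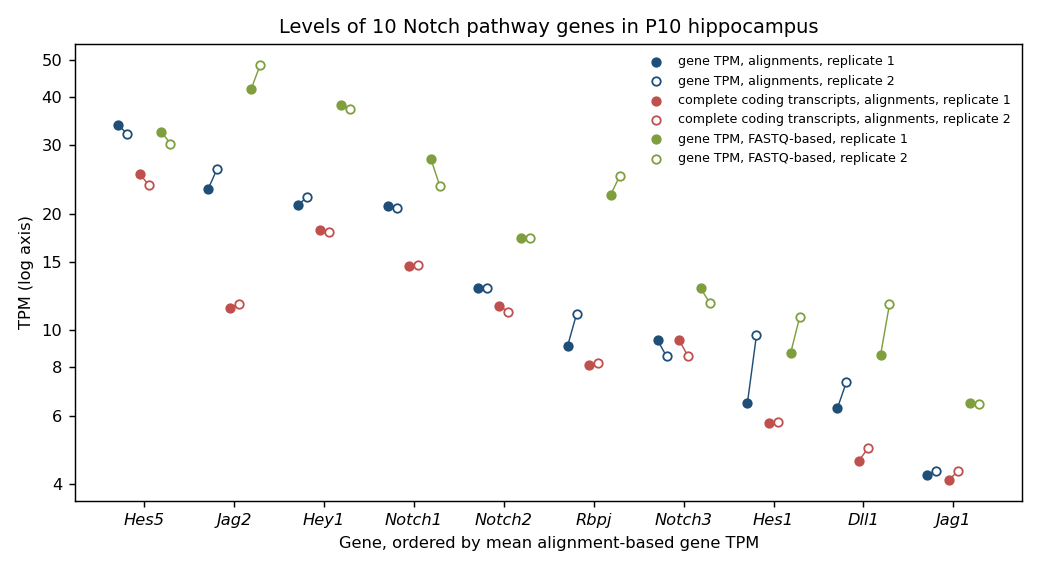
Level of each member on a log axis, in TPM. Filled points are replicate 1 and open points replicate 2, joined by a line, for gene TPM from alignments, for complete coding transcripts only, and for gene TPM from the FASTQ-based table. Jag2 stands at 24.6 TPM as a gene and at 11.5 TPM for its complete coding transcript, and Hes1 has a wide gap between the libraries as a gene (6.48 and 9.68 TPM) and a small one for its coding transcript.

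Among the receptors, Notch1 had the highest level, then Notch2 and Notch3. Notch1 (chromosome 2, 26457903 to 26516663, mm10), the receptor best known for maintaining neural stem cells, stood at 20.9 TPM in replicate 1 and 20.7 in replicate 2, from 3164 and 2958 expected counts. Notch2 (chromosome 3, 98013527 to 98150361) was listed at 12.83 TPM in both libraries, from 2649 and 2397 counts. Notch3 (chromosome 17, 32120820 to 32166852), the mural cell receptor, stood at 9.41 and 8.54 TPM, from 1615 and 1362 counts. The ranges of the 3 receptors did not overlap on this scale. The log2 ratio of Notch1 to Notch2 was 0.71 in replicate 1 and 0.69 in replicate 2, and that of Notch2 to Notch3 was 0.45 and 0.59. Restricted to complete coding transcripts, the order was the same and the gaps smaller, with means of 0.37 ± 0.04 and 0.34 ± 0.07.

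The 3 ligands spanned a wider range than the receptors. Jag2 (chromosome 12, 112907819 to 112929776) stood at 23.1 and 26.1 TPM, from 1387 and 1354 counts. Dll1 (chromosome 17, 15367354 to 15376872), a Delta-like ligand carried by committed progenitors, stood at 6.27 and 7.32 TPM, from 371 and 378 counts. Jag1 (chromosome 2, 137081456 to 137116644), a ligand of the inner ear, vessels and dentate stem cell niche, stood at 4.22 and 4.31 TPM, from 493 and 479 counts. Jag2 was above both other ligands in each library, with a log2 ratio of 2.45 and 2.60 over Jag1 and of 1.88 and 1.83 over Dll1. From complete coding transcripts these ratios shrank to means of 1.46 ± 0.03 and 1.27 ± 0.05. Dll1 and Jag1 lay close together, with a log2 ratio of Dll1 to Jag1 of 0.57 and 0.76 as genes and of 0.17 and 0.20 from coding transcripts.

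Rbpj (chromosome 5, 53466152 to 53657362), the only DNA-binding factor among the members that partners the receptor domain directly, stood at 9.10 and 11.01 TPM, from 953.89 and 903.86 counts. These counts are not whole, with a deposited posterior standard deviation of 14.3 and 12.01 counts, since some reads match more than 1 gene. The processed pseudogene Rbpj-ps3 held 118 and 67.1 counts, so a small part of the Rbpj total is uncertain. For 8 of the 10 members that deviation was 0 in both libraries, and for Notch2 it was 1.76 and 1.33 counts.

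Of the target genes, Hes5 and Hey1 stood above Hes1. Hes5 (chromosome 4, 154960923 to 154962371), a basic helix-loop-helix repressor and a standard readout of Notch activity in neural stem cells and astrocytes, stood at 33.9 and 32.1 TPM, from 691 and 603 counts. Hey1 (chromosome 3, 8663359 to 8667256), a related repressor also used in vessels, stood at 21 and 22.1 TPM, from 959 and 900 counts. Hes1 (chromosome 16, 30064384 to 30067796), a repressor whose level oscillates in progenitors, stood at 6.48 and 9.68 TPM, from only 178 and 186 counts. Replicate 2 is thus 1.49 times higher for Hes1 in TPM while its counts are almost level, and its transcripts are described further on. The log2 ratio of Hes5 to Hes1 was 2.39 and 1.73 as genes and 2.14 and 2.04 from complete coding transcripts.

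Promoter windows of 250 bases before to 50 after the annotated start were at hand for 8 of the 10 members, in 10 windows from RefSeq (GRCm38.p6, the assembly of mm10). They were searched on both strands for TGGGAA, the core of the sequence that Rbpj binds, and for the longer GTGGGAA, which contains it. The core was in 3 of the 10 windows, those of Hes5 and both of Rbpj, which overlap and share 1 match. Of all 32851 windows in the table, 25.6% held the core and 6.38% the longer form. Only the Hes5 window held the longer form, and it did so at both of its matches, which begin 226 bases and 82 bases upstream of the start when counted from the core. The Hes5 window is shown because Hes5 is the highest member and a textbook target, and the Rbpj window because it holds the core in the gene of the factor itself. Capitals mark the core on either strand, 5′ to 3′ along the gene. The Hes5 window is chr4:154960673-154960972 and the Rbpj window chr5:53590096-53590395, both on the plus strand. A match is a description of these letters and no evidence of binding.
Hes5: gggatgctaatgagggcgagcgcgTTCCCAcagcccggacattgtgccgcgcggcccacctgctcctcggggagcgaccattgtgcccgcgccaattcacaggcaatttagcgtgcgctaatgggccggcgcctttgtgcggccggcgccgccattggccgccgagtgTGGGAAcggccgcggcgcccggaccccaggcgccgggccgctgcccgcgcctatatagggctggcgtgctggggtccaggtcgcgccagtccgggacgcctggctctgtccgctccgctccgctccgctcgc
Rbpj: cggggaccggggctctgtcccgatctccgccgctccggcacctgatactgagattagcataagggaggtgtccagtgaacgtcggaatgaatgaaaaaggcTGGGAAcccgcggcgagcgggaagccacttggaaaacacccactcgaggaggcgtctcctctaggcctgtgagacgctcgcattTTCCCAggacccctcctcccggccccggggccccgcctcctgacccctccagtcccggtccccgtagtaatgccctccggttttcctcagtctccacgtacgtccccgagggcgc

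Most reads of each member fell on its complete coding transcripts, but short transcripts took a far larger part of the TPM. Complete coding means annotated as protein coding with no missing end. These transcripts held a median of 94.1% of expected counts over the 10 members and a median of 78.0% of gene TPM. Notch3 had all of its TPM on Notch3-201 in both libraries, and Jag1 had 96.9% and 100% on Jag1-201. Notch2-201 held 89.9% and 86.9%, with 10.1% and 13.1% on the retained-intron transcript Notch2-202. Notch1-201 held 69.9% and 71.2%, beside 11.3% and 5.47% on Notch1-207, a transcript of 434 bases with 17.1 and 7.62 counts. Notch1-205, a retained-intron form, held 8.40% and 8.91%.

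Jag2 had the lowest share of all. Jag2-201, its only complete coding transcript, took 1234 and 1176 of 1387 and 1354 counts but 49.2% and 44.7% of the TPM. Jag2-205, a noncoding transcript of 750 bases with 97.3% of its bases inside the exons of Jag2-201, had 0.63 counts in replicate 1 and 53.7 in replicate 2, or 0.17% and 15.7% of the TPM. Jag2-206, with a retained intron, held 11.99% and 8.93%. The remaining 7 transcripts of Jag2 stayed below 10% in each library. Without the short transcripts Jag2 falls from the second to the fourth place among the members, at 11.4 and 11.7 TPM, where its range overlaps that of Notch2.

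Hes1 shows how few reads can move a gene level. Its coding transcript Hes1-201 had 170 and 159 counts and stood at 5.74 and 5.78 TPM. Hes1-203, a retained-intron transcript of 406 bases that shares 83.7% of its bases with Hes1-201, had 0 counts in replicate 1 and 21.1 in replicate 2. Those 21.1 counts were worth 3.41 TPM, or 35.2% of the gene TPM in replicate 2. In the FASTQ-based table Hes1-203 was listed at 0 in both libraries. There the gene stood at 8.70 and 10.8 TPM and Hes1-201 at 8.70 and 9.88, so replicate 2 was still the higher.

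The other members had shares in between. Hes5-201 held 74.6% and 73.8%, and the noncoding Hes5-202, of 350 bases, held 25.4% and 26.2% from 46.9 and 42.5 counts. Hey1-201 held 86.3% and 80.9%, and Hey1-202, which keeps an intron, 6.95% and 8.37%. Dll1-201 held 73.2% and 67.5%. Its retained-intron transcripts Dll1-204 and Dll1-202 held 12.8% and 14.0% in replicate 1 and 19.3% and 7.65% in replicate 2, and Dll1-203 held 0% and 5.60%. For Rbpj, 5 complete coding transcripts together held 89.2% and 74.5%, led by Rbpj-203 at 57.6% and 42.7% and Rbpj-207 at 18.4% and 15.6%. Rbpj-202 held 9.24% and 6.53%, Rbpj-208 3.96% and 4.26%, and Rbpj-201 0% and 5.35%. The noncoding Rbpj-209 had 0 and 16.7 counts, or 0% and 16.8% of the TPM. Short reads place such splits by estimation, so a share is an estimate and not a count of molecules.

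**Figure D2:**
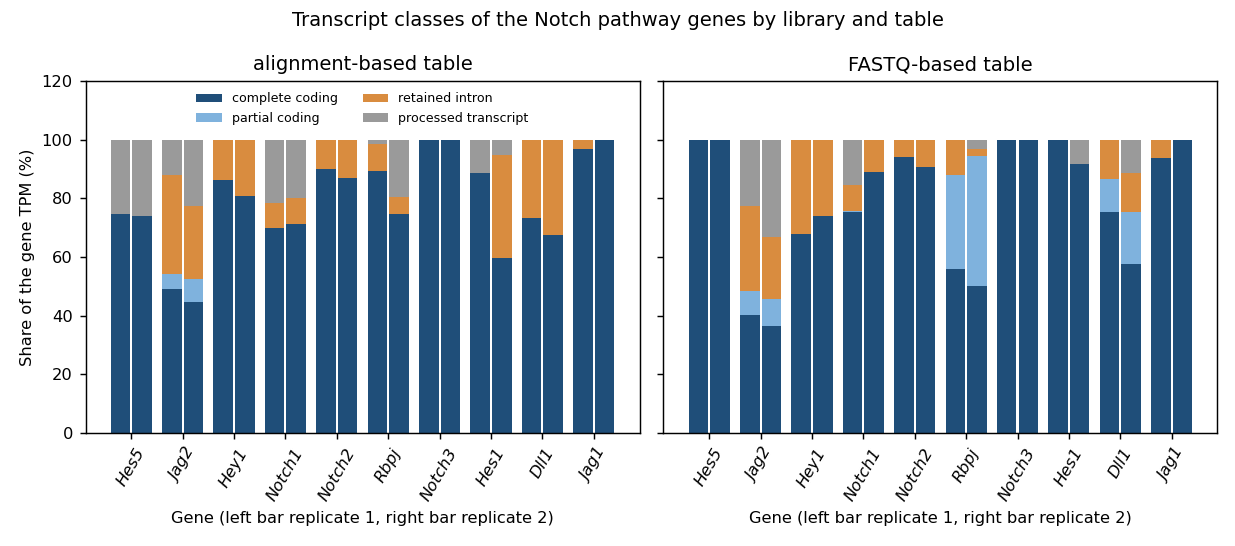
Share of each gene's TPM in percent by transcript class, with the left bar for replicate 1 and the right bar for replicate 2, from alignments (left panel) and from the FASTQ-based table (right panel). Notch3 is all complete coding in both, Jag2 has under 50% complete coding in all 4 bars, and the Hes5 noncoding part is in the left panel only.

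The 2 quantifications of the same libraries placed the members in a different order. In the FASTQ-based table Jag2 led with 42 and 48.5 TPM, then Hey1 with 38.2 and 37.2, and then Hes5 with 32.6 and 30.3. The log2 ratio of Hes5 to Hey1 was 0.69 and 0.54 from alignments and -0.23 and -0.30 from the FASTQ-based table, so it turned in both libraries. From complete coding transcripts Hes5 was above Hey1 by both tables, at 31.5 ± 1.61 and 26.8 ± 1.15 TPM in the FASTQ-based one. For 18483 genes with at least 1 TPM by either table, log2 ratios of the FASTQ-based to the alignment-based value were averaged over both libraries. The median of these was 0.64. Relative to that median Hes5 lay at -0.71 on the log2 scale and Rbpj at 0.60, the members furthest below and above it. Notch1 and Hes1 lay at -0.34 and -0.35, and Jag2 and Hey1 at 0.24 and 0.17. Notch2 and Notch3 lay at -0.21 and -0.19, and Dll1 and Jag1 within 0.1 of it. The members lay at a median of 0.50, and 7 of the 10 were below the median of all genes.

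Single transcripts also differed between the tables, and their part in the gene gaps was not tested. Hes5 had 510 and 439 FASTQ-based counts against 691 and 603 from alignments. Hes5-202 was listed at 0 in both libraries there, and Hes5-201 itself went from 644 and 561 counts to 510 and 439. Notch3 lay below the median of all genes with 100% on 1 transcript in both tables. Rbpj-210, a partial coding transcript of 687 bases, had 0 counts from alignments and 40.9 and 58.2 FASTQ-based counts, which made up 32.1% and 44.5% of the Rbpj TPM. Rbpj-203 then held 30.5% and 31.0%, and Rbpj-208 had 209 and 68.3 counts. Hey1-202 rose from 19.2 and 22.6 counts by alignments to 60.2 and 33.9, or 26.3% and 16.5% of the gene. Jag2-205 was lower in replicate 1 by this table as well, with 14.6 and 66.7 counts, or 5.13% and 22.1%. For Dll1 the partial transcript Dll1-205 held 11.3% and 17.8%, Dll1-206 0% and 11.4% and Dll1-203 6.20% and 13.1%, each from under 12 counts. Notch1-207 had 15.3% in replicate 1 and 0% in replicate 2, and Notch1-205 had 8.85% and 10.9%.

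None of the 10 members differed between the libraries beyond the test. All 10 had a mean count of at least 100 and were tested. By an exact binomial test (two-sided, p-values adjusted over 12881 genes by Benjamini-Hochberg), 0 of 10 members had an adjusted p under 0.05, against 11.8% of all genes tested. At least 2-fold with that adjusted p, the count was 0 of 10 against 0.303% of genes. At an unadjusted p under 0.05 in the exact binomial test there was 1 of 10 members, Notch3, against 2958 of 12881 genes. For edgeR's exact test with a common dispersion the count was 0 of 10, against 0.652% of genes. Either test sets one library's reads against the other's and says nothing of conditions. The dispersion in edgeR's test was estimated from these same 2 libraries, so that test is no separate check.

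The sizes of the differences were small, and the counting intervals bound them by counting error alone. Other spread between the libraries and the split of reads among transcripts are not in these intervals. The median absolute log2 ratio was 0.075 over the members and 0.070 over all genes tested. Notch3 had a log2 ratio of replicate 2 to replicate 1 of -0.13, with an exact 95% counting interval of -0.24 to -0.03 and an adjusted p of 0.0868. Notch1 had 0.02 (-0.06 to 0.09) and Notch2 -0.03 (-0.11 to 0.05), the narrowest intervals among the members. Hes1, with the fewest counts, had 0.18 with an interval of -0.13 to 0.48. Dll1 had 0.14 (-0.07 to 0.35), Jag1 0.07 (-0.11 to 0.26) and Jag2 0.08 (-0.03 to 0.19). Hes5 had -0.08 (-0.24 to 0.08), Hey1 0.02 (-0.11 to 0.15) and Rbpj 0.04 (-0.10 to 0.17). A 2-fold difference lies outside all 10 intervals. The interval bounds of TPM deposited for each library, whose level is not stated, overlapped between the libraries for 10 of 10 members, Hes1 included at 5.80 to 8.69 and 7.62 to 12.3 TPM.

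**Figure D3:**
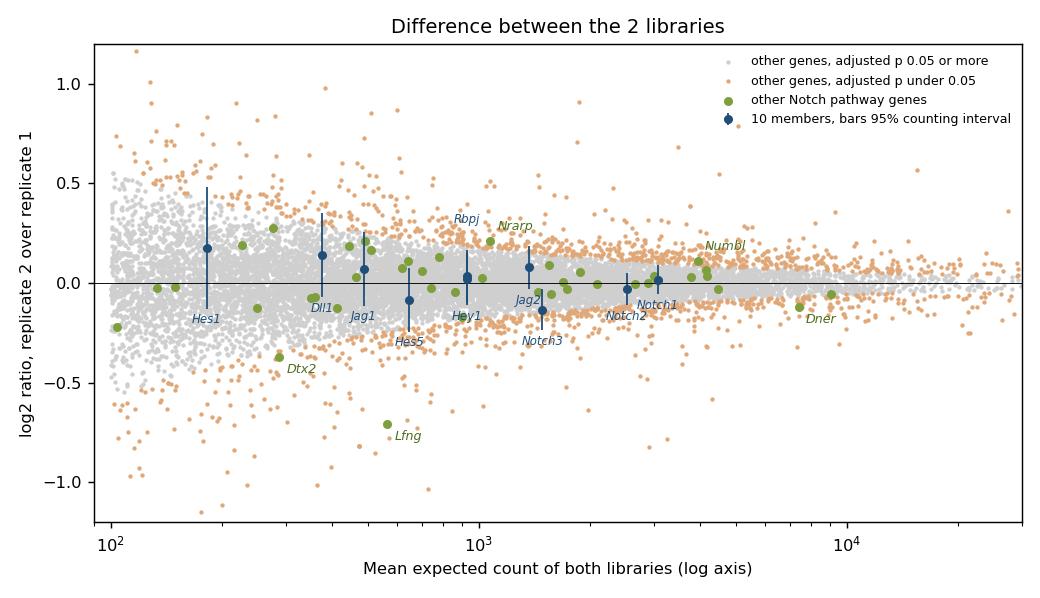
Log2 ratio of replicate 2 to replicate 1 against the mean expected count on a log axis, for the genes whose mean count reached 100. Blue points are the 10 members with exact 95% counting intervals, green points other Notch pathway genes, and orange and grey points other genes with and without an adjusted p under 0.05, of which 95 of 12881 lie outside the axes. The members sit between -0.13 and 0.18, and Lfng, at -0.71, is the pathway gene furthest from 0.

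The rest of the pathway was expressed around the members, with a median of 17.7 and 17.1 TPM in replicates 1 and 2 against 11.1 and 11.9 for the members. Of 47 further genes, 43 were detected at 1 TPM or more in both libraries and the same number were tested. Of these, 6 of 43 had an adjusted p under 0.05 in the exact binomial test, 3 higher and 3 lower in replicate 2, against 6.28% and 5.49% of all genes in those directions. The median log2 ratio of the 43 was 0.01, and that of all genes tested 0.00. The fourth receptor gene, Notch4, known from endothelium, stood at 5.78 and 5.99 TPM, below the other 3.

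Lfng differed most. It encodes lunatic fringe, a glycosyltransferase that adds sugar to Notch receptors and changes which ligands they answer to (chromosome 5, 140607320 to 140615545). Lfng had 720 counts and 17.4 TPM in replicate 1 and 408 counts and 9.82 TPM in replicate 2. Its log2 ratio was -0.71, with an exact 95% counting interval of -0.89 to -0.53, an exact binomial adjusted p of 9.1e-14 and an adjusted p of 0.00473 in edgeR's exact test. It was the only pathway gene that edgeR's test called, and its absolute ratio lay above 99.3% of all genes tested. The other enzymes of that group did not pass, with 40.1 and 39.3 TPM for Rfng, 17.7 and 17.1 for Poglut1 and 4.13 and 3.80 for Mfng. Beside Lfng, the libraries also differed in the sex-linked genes and in the choroid plexus and meningeal lists given above, and the myelin list summed to 156 and 281 TPM. Of the meningeal list, Ptgds stood at 333 and 85.1 TPM and Col1a1 at 27.2 and 24.2. Dcn was near level at 28.8 and 28.6 TPM, as was Lum at 1.87 and 1.92. The red blood cell list summed to 377 and 213 TPM, with 3 of 3 genes passing as lower in replicate 2. The part of these in the Lfng difference was not tested.

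Among the other ligands, Dner, an atypical ligand of neurons, was far above the members at 105 and 95.9 TPM and passed as lower in replicate 2, with a log2 ratio of -0.12 and an exact binomial adjusted p of 1.67e-05. Dlk2 stood at 19.9 and 20.6 TPM, and the imprinted Dlk1 at 0.52 and 0.51. The ubiquitin ligases that make ligands active were led by Mib1 at 70.8 and 67.7 TPM and Neurl1a at 59.5 and 61.8, with Mib2 lowest by the mean of both libraries, at 39.95 and 38.05. All 10 cleavage genes were detected and 0 of 10 passed in the exact binomial test, against 11.8% of all genes tested. An unadjusted p under 0.05 in that test was reached by 1 of 10, against 2958 of 12881 genes. edgeR's exact test called 0 of 10, against 0.652% of all genes. The gamma-secretase subunit genes Aph1a and Psenen led at 43.8 and 44.8 TPM and at 39.0 and 40.8. Aph1c was lowest at 1.99 and 3.01 TPM, and it shares reads with Aph1b, so the split between them is uncertain.

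Of 9 inhibitor and turnover genes, 3 passed the exact binomial test, against 11.8% of all genes tested, and edgeR's exact test called 0 of 9, against 0.652%. Nrarp, itself a Notch target that feeds back on the pathway, was higher in replicate 2, with 19.3 and 22.3 TPM and a log2 ratio of 0.21. Numbl, a relative of Numb, was higher by 0.11, at 57.0 and 63.1 TPM. Dtx2, a member of the deltex family, was lower by 0.37 on the log2 scale, at 5.57 and 4.81 TPM, and was the lowest of the group. It did not pass from FASTQ-based counts (exact binomial adjusted p = 0.0837) or with no filter on low counts (0.0506). Its relative Dtx3 led at 83.8 and 85.1 TPM. Of the 7 nuclear cofactors and corepressors, all were detected. Spen, a corepressor gene, stood at 28.9 and 26.8 TPM, and the coactivator gene Maml3 was lowest at 2.91 and 3.30.

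The other genes of the Hes and Hey family were below Hes5 and Hey1. Hes6 stood at 14.1 and 13.4 TPM and Heyl at 3.83 and 3.85. Hes2 and Hes3 were listed at 0 counts in both libraries from alignments, which by counting error alone allows up to 0.094 and 0.101 counts per 1000000 with a floor of 3 counts per library. In the FASTQ-based table Hes2 had 5 counts in replicate 1, above that floor, and 1 in replicate 2, and Hes3 had 0 and 1.

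**Figure D4:**
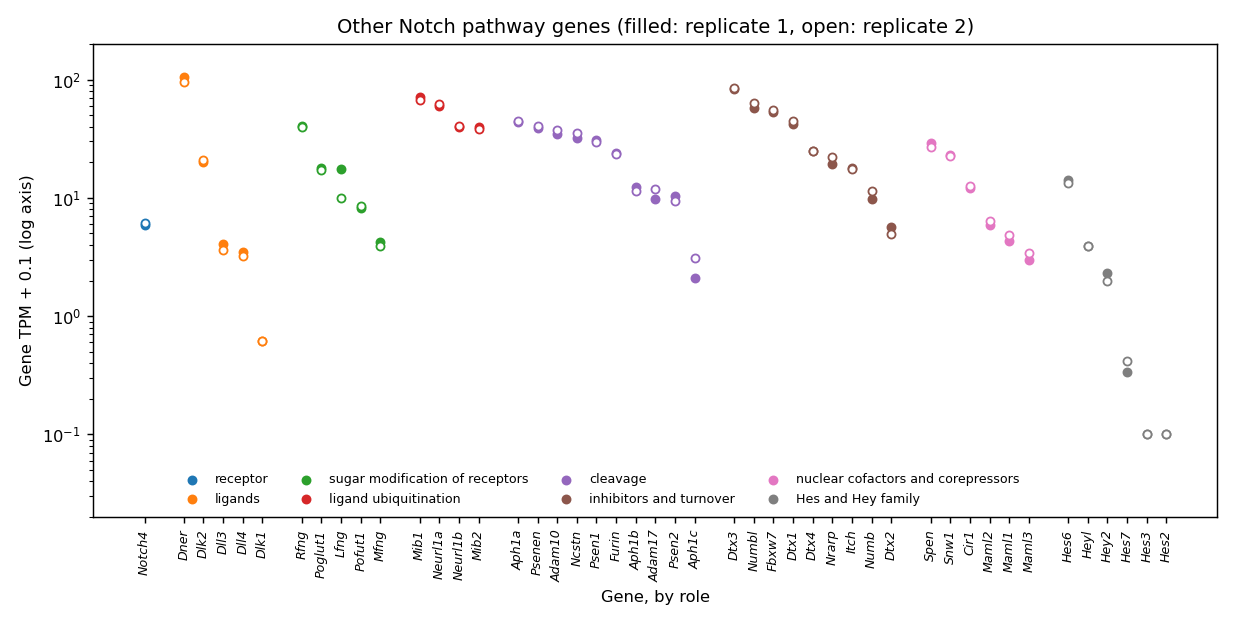
Gene TPM plus 0.1 on a log axis for 46 other Notch pathway genes grouped by role, with filled points for replicate 1 and open points for replicate 2. Dner, at 105 and 95.9 TPM, is the highest shown, Lfng shows a gap between the libraries (17.4 and 9.82 TPM), and Hes2 and Hes3 lie at the bottom, at a TPM of 0.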

How the data were processed

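Total RNA-seq of 2 hippocampus libraries of 1 group was used. The deposited gene and transcript tables give expected counts and TPM, and a percent of each gene per transcript, from transcriptome alignments to mm10 with GENCODE M21, per the file descriptions beside them. A further deposited transcript table gives estimated counts and TPM from the FASTQ file. For the quantification, tool names and versions were not given in the sources used here. Deposited counts are not normalized, and deposited TPM sums to the same total over all rows, spike-ins included.

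All 55536 annotated genes matched, and 86 had no FASTQ-based row. Left out of library sizes were 97 spike-in rows (0.358% and 0.359% of counts) and 26248 rows named only by a number (2.81e-05% and 2e-05%). Expected counts were rounded to whole numbers. Genes whose mean count reached 100 went into a two-sided exact binomial test against TMM-scaled library sizes (edgeR 4.0.16, R 4.3.3) with Benjamini-Hochberg adjustment, called at an adjusted p under 0.05. Log2 ratios use a prior count of 0.5. As an alternative, edgeR's exact test used the common dispersion of an intercept-only fit (biological coefficient of variation 0.0688). Counting intervals (95%, Clopper-Pearson, exact) and the floor of 3 counts cover counting error only, as no molecular identifiers are described. The labels number the libraries as biological replicates 1 and 2.

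FASTQ-based gene values are sums over transcripts, and table ratios use a pseudocount of 0.1 TPM. Promoter windows came from RefSeq (GRCm38.p6). Whether strand was used in counting was not given in the sources used here. On simulated counts for the 2 libraries (12878 genes tested, counting noise only) the binomial test called 96% of genes changed 1.5-fold, 100% of those changed 2-fold and 0.0631% of unchanged ones. Python 3.11.15, pandas 2.3.3, scipy 1.17.1 and matplotlib 3.10.9 were used.

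Members and lists were chosen with earlier results of these data known. Named were all members, each transcript with at least 10% of a gene in any library and table, and, of other pathway genes, the 2 highest and the lowest per role and those that passed, except 1 gene that enters the counts and is not reported here. Alternatives were other scaling, filters, pseudocounts, tables, the edgeR test and single libraries. Complete coding transcripts, counts per kilobase and shares of counts were added after seeing the data. Parental alleles were not separated.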

Additional observations from a re-analysis of the deposited data

How the results depend on the processing

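The median member level of 11.4 TPM was 20.5 in the FASTQ-based table, 24.8 when TPM was rescaled over nuclear protein-coding genes, and 10.2 from complete coding transcripts. As counts per kilobase of the longest complete coding transcript, per 1000000 counts, it was 6.92. From single libraries it ranged from 11.1 to 11.9 TPM. By counts per kilobase the order of the members was that of complete coding transcripts, and all 9 neighbouring pairs had ranges that did not overlap. The count of members that differed between the libraries was 0 under all 7 alternatives, with adjusted p-values of either test from 0.067 upward. All 70 member ratios kept their direction. The other filters on low counts and the edgeR test reuse the main counts and scaling, so there the ratio could not change. Only other scaling, FASTQ-based counts and the set of protein-coding genes off X and Y could turn it. For other pathway genes the count of 6 became 1 under edgeR's exact test with a common dispersion, and was 5 to 7 otherwise. That test allows for the spread between the libraries and so calls fewer genes (84 against 1516 of 12881). Its dispersion was estimated from the same 2 libraries that it compares, so the differences under test raise it. Dtx2 did not pass with no filter (adjusted p = 0.0506 in the exact binomial test) or from FASTQ-based counts (0.0837). Neurl1a passed only from FASTQ-based counts and Mib1 only with DESeq2 size factors as scaling, so the genes called changed as well as their count. All 42 ratios of the 6 genes that passed in the main test kept their direction, with the same limit on which could change. The median share of complete coding transcripts, 78.0% of TPM, was 94.1% of expected counts and 87.3% in the FASTQ-based table, and 74.2% to 87.4% in single libraries. The median difference between tables, -0.13 relative to all genes on the log2 scale, ranged from -0.19 to -0.12 in single libraries. Leaving out a library leaves no comparison between libraries. No paired analysis was possible because the labels give 1 group only. Hes1, at 178 and 186 counts, is limited most by depth.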

Other observations

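Several members overlap genes on the other strand, and use of strand in the counts was not given in the sources used here. Dll1 shares 867 exon bases with the lincRNA A930024N18Rik, which held 95 and 83 counts beside 371 and 378 for Dll1. Notch1 shares 1068 bases with 0610009E02Rik, which held 18 and 23 counts. Hes5 shares 433 bases with Gm20421, which held 7 and 4 counts. Notch3 shares 488 bases with Gm17276, which held 21 and 17. On its own strand, Notch2 shares 541 exon bases with Gm42820, which held 44.76 and 30.85 counts, an overlap that strand cannot resolve. Of these, A930024N18Rik was the only one whose count came above 20% of its partner's.

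Rbpjl, the paralogue of Rbpj known from pancreas, held 16 and 20 counts. The pseudogene Rbpj-ps3 on chromosome 6 had 118 and 67.1 counts from alignments and 100.4 and 49.2 from the FASTQ-based table, lower in replicate 2 by both. Rbpj itself had a log2 ratio of 0.04.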
